A study of Mus musculus with 16 samples.

Results

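The 7 genes described here belong to the machinery by which a neuron can release glutamate or GABA: the vesicular glutamate transporter genes Slc17a6, Slc17a7 and Slc17a8, the GABA-synthesizing enzyme genes Gad1 and Gad2, the vesicular GABA transporter gene Slc32a1 and the GABA-degrading enzyme gene Abat. They were taken by name, with earlier results of these data known, and matched to 7 of the 25006 Ensembl identifiers in the count files. Their counts were read in ribosome-bound polyA RNA from the substantia nigra of 16 mice at postnatal day 45, 30 days after injection of an adeno-associated virus (AAV9) that carried a Cre-dependent, epitope-tagged ribosomal protein (RiboTag). The 8 control mice were DAT-Cre+/- and the 8 MCU-KO mice were DAT-Cre+/- MCU fl/fl, so that both groups carried Cre under the dopamine transporter promoter and both received the vector. Mcu, the gene of the pore subunit of the mitochondrial Ca2+ uniporter, was floxed only in the MCU-KO mice. The control mice came from DAT-Cre+/+ parents crossed to C57/BL6, so they carried no floxed Mcu allele. Tagged ribosomes were made where that promoter and the spread of the virus allowed, and libraries of the same tissue before immunoprecipitation were not analysed here, so enrichment over input could not be computed.

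Vesicular glutamate transporters load glutamate into synaptic vesicles, and a subset of midbrain dopaminergic neurons is known to carry VGLUT2, the product of Slc17a6. VGLUT1 (Slc17a7) is best known from cortical neurons and VGLUT3 (Slc17a8) from cholinergic, serotonergic and some interneuron populations. GAD67 (Gad1) and GAD65 (Gad2) convert glutamate to GABA, VGAT (Slc32a1) loads GABA and glycine into vesicles, and the mitochondrial GABA transaminase (Abat) breaks GABA down. Dopaminergic neurons of the substantia nigra pars compacta (SNc) have been described as releasing GABA that enters vesicles through the vesicular monoamine transporter and is gathered by uptake or made by the aldehyde dehydrogenase ALDH1A1. The neighbouring pars reticulata is made up largely of GABAergic neurons that express the same synthesis and loading genes, which is why GABAergic marker genes were read beside the members.

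On the mouse assembly mm10 (GRCm38), Slc17a6 (ENSMUSG00000030500) spans chr7:51622006-51671119 and Slc17a7 (ENSMUSG00000070570) spans chr7:45163949-45176142, both on the plus strand. Slc17a8 (ENSMUSG00000019935) spans chr10:89574020-89621253 on the minus strand. Gad1 (ENSMUSG00000070880) lies at chr2:70553072-70602014, Gad2 (ENSMUSG00000026787) at chr2:22622205-22693874 and Slc32a1 (ENSMUSG00000037771) at chr2:158610767-158615748, all on the plus strand. Abat (ENSMUSG00000057880) lies at chr16:8513429-8621568 on the plus strand. For Slc32a1, 23.7% of the 50-base stretches of its exons were also found in the annotated antisense gene Gm14205, against at most 1.49% shared with any other gene for the other members. Whether strand was used in counting is not given in the sources used here, so reads of Gm14205 could not be told apart from those of Slc32a1.

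Gene totals ranged from 18999107 to 22016362 counts in control and from 14129527 to 20582204 in MCU-KO libraries, the lowest being MCU-KO mouse 8. Counts were scaled between libraries to normalised counts with size factors, and log2 correlations between libraries ran from 0.717 to 0.831. All 13 dopaminergic markers, led by Th, the gene of tyrosine hydroxylase, had at least 3 counts in every mouse, and the one with the lowest mean was Foxa2. Per kilobase, 99.99% of tested genes lay below Th in control mice. All 8 oligodendrocyte and all 7 astrocyte markers also had at least 3 counts in every mouse, so detection alone does not show enrichment of dopaminergic RNA. Mcu itself ranged from 120 to 828 normalised counts (median 401.0) in control and from 5.82 to 410.1 (median 246) in MCU-KO mice, so the groups overlapped, with 3 of 8 MCU-KO mice below every control. Its log2 fold change was -1.19 ± 0.59 (SE; edgeR quasi-likelihood test, unadjusted p = 0.0569, adjusted p = 1.00), and because counts covered the whole gene rather than the floxed part they could not check the genotype label of each library.

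Of the 3 vesicular glutamate transporter genes, Slc17a6 was present in every library, Slc17a7 in some, and Slc17a8 in none. Slc17a6 ranged from 212 to 920 normalised counts in control mice (median 603) and from 225 to 1971 in MCU-KO mice (median 771). Of the control mice, 7 of 8 lay between 514 and 920 with mouse 8 alone at 212, whereas the MCU-KO mice fell at 225, 283, 306, 636, 905, 1296, 1309 and 1971. The coefficient of variation was 34.1% in control and 72.0% in MCU-KO mice, and the difference in spread was not tested. Among the members with counts in every mouse, Slc17a6 had the widest range, 8.76-fold between the lowest and the highest MCU-KO mouse.

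Slc17a7 had 0 counts in control mice 1, 3 and 7 and in MCU-KO mouse 2, and between 17.6 and 57.3 normalised counts in 4 of the other 5 control mice. Control mouse 2 alone reached 282 normalised counts and held 320 of the 473 Slc17a7 counts of all control libraries. In MCU-KO mice it ran from 0 to 66.2 (median 18.5). Slc17a8 had 0 counts in 16 of 16 libraries, which at 3 counts allows a level of up to 0.136 CPM in the deepest library and 0.212 CPM in the shallowest, and the gene was therefore not detectable at this depth. These limits cover counting error only.

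Both GABA-synthesizing enzyme genes were found in every mouse. Gad1 lay between 752 and 2043 normalised counts in control mice (median 865) and between 616 and 1812 in MCU-KO mice (median 1351). Control mouse 3 alone exceeded the range of the other control mice, whose highest was 1245. Gad2 lay between 1005 and 2617 in control mice (median 1523) and between 682 and 3417 in MCU-KO mice (median 1030), the top value belonging to MCU-KO mouse 6, whereas the other 7 of 8 MCU-KO mice did not exceed 1567. For Gad2, 4 of 8 MCU-KO mice were below every control mouse and 1 was above every control mouse.

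The vesicular GABA transporter gene Slc32a1 was, also per kilobase, the lowest of the members with counts in every mouse. It ranged from 142 to 462 normalised counts in control mice (median 222) and from 114 to 454 in MCU-KO mice (median 284), so that the groups covered nearly the same span. Control mouse 6 stood alone at 462, with the next control mouse at 260. Abat was the most abundant member, also per kilobase, and the steadiest one, ranging from 3517 to 5622 normalised counts in control mice (median 3977) and from 2142 to 4520 in MCU-KO mice (median 3394). Of the MCU-KO mice, 4 of 8 had less Abat than any control mouse, and none had more than the highest control mouse.

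**Figure D1:**
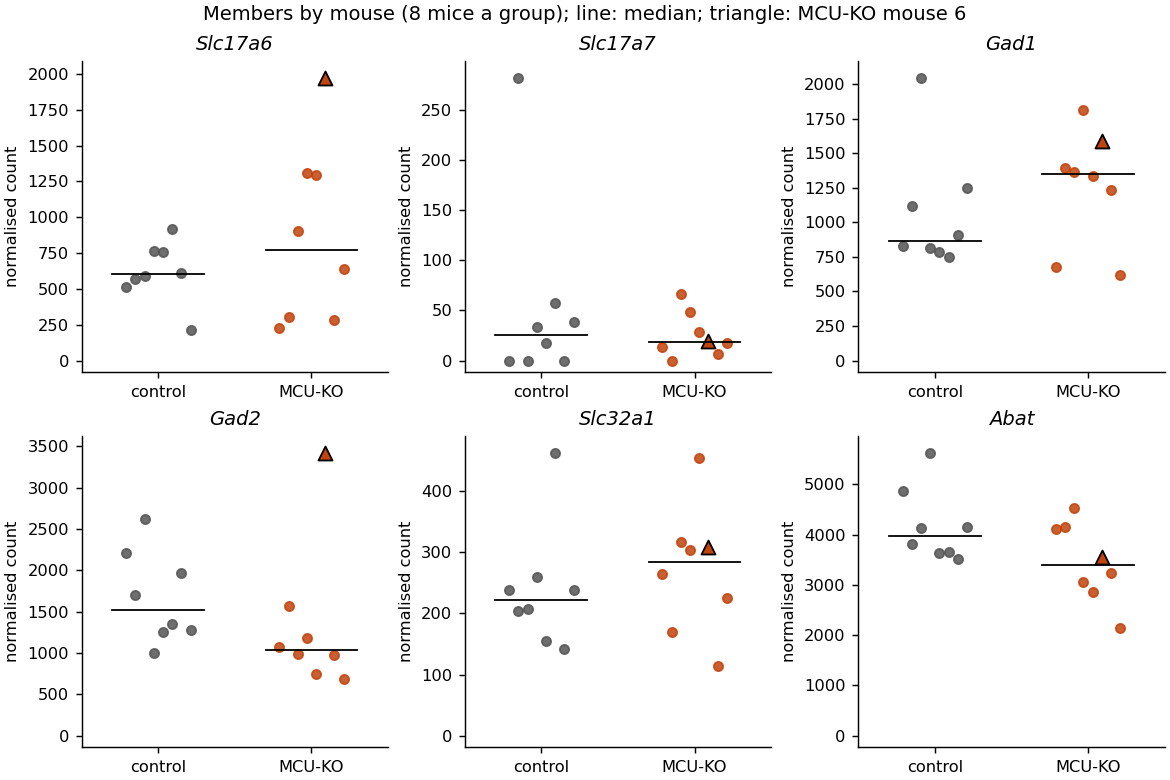
Normalised counts (vertical axis, linear, one scale per gene) of the 6 members with counts, for each of 8 control (grey) and 8 MCU-KO mice (orange), with a line at the median. Slc17a6 was spread from 225 to 1971 in MCU-KO mice, MCU-KO mouse 6 (triangle) was highest for Slc17a6 and Gad2, and the groups overlapped for every member.

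Per kilobase of merged exons in control mice, the order of mean log2 levels was Abat (9.06), Gad2 (8.08), Gad1 (7.04), Slc17a6 (6.74), Slc32a1 (6.33) and Slc17a7 (1.15, with 1 added to each normalised count), and Slc17a8 was at 0 counts. Abat exceeded Gad2 by 0.97 ± 0.57 log2 units (SD, n = 8; exact sign-flip permutation test, adjusted p = 0.0156 over 6 pairs, in 8 of 8 mice), Gad2 exceeded Gad1 by 1.05 ± 0.45 (SD, n = 8; exact permutation test, adjusted p = 0.0156, in 8 of 8 mice), and Slc32a1 exceeded Slc17a7 in 8 of 8 mice (exact permutation test, adjusted p = 0.0156, n = 8). The smallest unadjusted p that 8 mice allow in this two-sided test is 0.0078. Gad1 and Slc17a6 differed by 0.30 ± 0.95 (SD, n = 8, exact permutation test, adjusted p = 0.414) and Slc17a6 and Slc32a1 by 0.41 ± 0.76 (SD, n = 8, exact permutation test, adjusted p = 0.169). Neither mean difference could be told from 0 with 8 mice, which does not show that the levels were equal. Control mouse 8, which had the least Slc17a6, was the only control mouse with less Slc17a6 than Slc32a1 per kilobase. Without that mouse Slc17a6 exceeded Slc32a1 by 0.63 ± 0.47 in 7 of 7 mice (SD, n = 7). All differences then had the same sign, which fixes p at the smallest value that 7 mice allow (exact permutation test, p = 0.0156). That p is therefore no separate evidence of a difference.

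The place of Gad2 above Gad1 depended on the length used. With the longest annotated transcript, which is 3601 bases for Gad1 against 7639 bases of merged exons, the difference was -0.007 log2 units (exact permutation test, adjusted p = 0.961, n = 8), because Gad2 keeps nearly the same length (5744 and 5876 bases). On that scale Gad1 exceeded Slc17a6 by 1.00 ± 0.95 (SD, n = 8, exact permutation test, unadjusted p = 0.0156, adjusted p = 0.0312). Slc17a6 exceeded Slc32a1 by 0.79 ± 0.76 (SD, n = 8, exact permutation test, unadjusted p = 0.0312, adjusted p = 0.0469). Slc32a1 then exceeded Slc17a7 in 7 of 8 mice, the exception being control mouse 2 (72.7 against 91.5 per kilobase). In the MCU-KO mice, per merged exon length, Gad2 exceeded Gad1 by 0.36 ± 0.67 (SD, n = 8, exact permutation test, unadjusted p = 0.195, adjusted p = 0.244) and did so in 5 of 8 mice. Against the level of Th per kilobase in the same mouse, the median in control mice was 1.02% for Abat, 0.534% for Gad2, 0.261% for Slc17a6, 0.244% for Gad1 and 0.174% for Slc32a1. Against all tested genes, 82.5% lay below Abat per kilobase in control mice, 71.9% below Gad2, 56.3% below Gad1, 51.6% below Slc17a6 and 44.8% below Slc32a1.

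**Figure D2:**
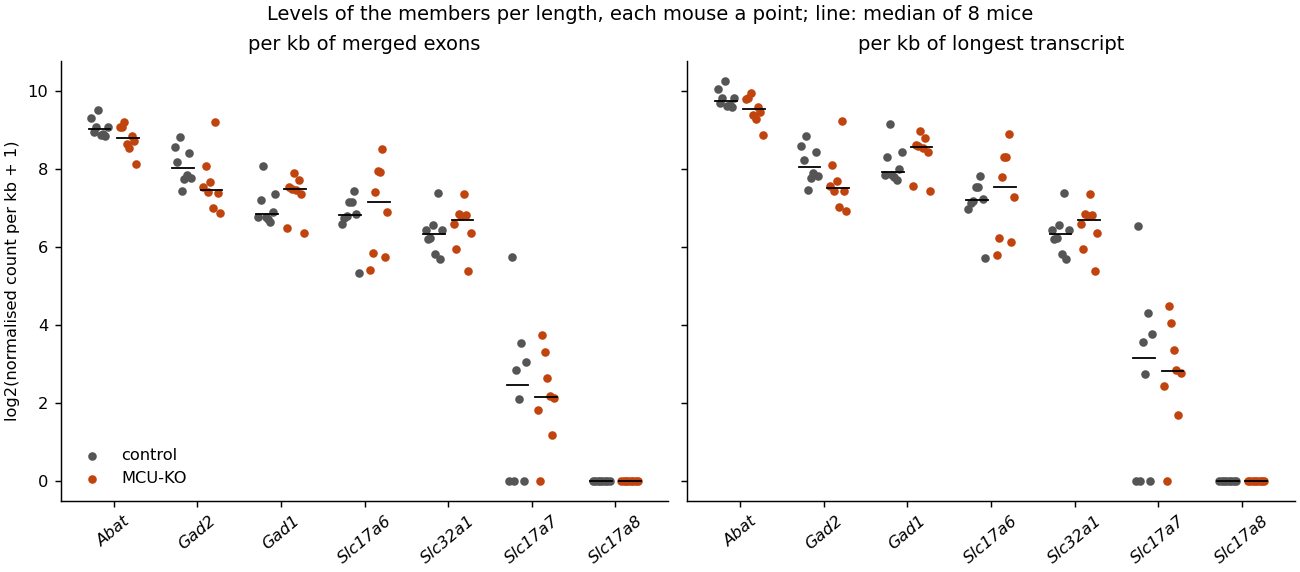
Level of each member as log2 of the normalised count per kilobase plus 1 (vertical axis), each mouse a point and the line the median of 8 mice, per merged exon length (left) and per longest transcript (right), control in grey and MCU-KO in orange. Abat is highest and Slc17a8 lies at 0 on both scales, whereas the gap between Gad2 and Gad1 in control mice closes on the right.

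Whether these genes differed between MCU-KO and control mice was asked in a fit over all 12390 genes with enough counts. The groups also differed in the floxed allele and in breeding, so effects of these and of Mcu deletion cannot be told apart. Of the 6 members that could be tested, 0 passed an adjusted p of 0.05 in edgeR, against 0.178% of all tested genes (22 genes), and 0 had an unadjusted p under 0.05, against 4.41% of all tested genes. DESeq2 also called 0 members, against 0.557% of the genes it tested. The groups did not overlap for 0 of 6 members, against 0.258% of all tested genes. Of the 6 tested, 3 members were higher and 3 lower in MCU-KO mice, with a median log2 fold change of -0.05 against 0.003 over all tested genes.

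The intervals show what sizes of change these 16 mice leave possible. Abat was 0.828-fold in MCU-KO relative to control mice, the narrowest estimate (log2 fold change -0.27 ± 0.14 SE, 95% interval -0.56 to 0.02, edgeR unadjusted p = 0.0656, adjusted p = 1.00). Gad1 was 1.18-fold (log2 0.24 ± 0.25 SE, interval -0.27 to 0.75) and Gad2 0.795-fold (log2 -0.33 ± 0.29 SE, interval -0.92 to 0.26), both with an edgeR adjusted p of 1.00. Without MCU-KO mouse 6, which had the most Gad2 of all mice, the log2 fold change of Gad2 was -0.70 (edgeR unadjusted p = 0.00509, adjusted p = 0.698). This was the only 1 of 25 settings with an unadjusted p under 0.05 for Gad2, and over all settings tried its adjusted p ran from 0.698 to 1.00.

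Slc32a1 was 1.13-fold in MCU-KO mice (log2 0.18 ± 0.39 SE, 95% interval -0.64 to 0.99). Slc17a6 was 1.40-fold (log2 0.49 ± 0.40 SE, interval -0.33 to 1.31), and 3 MCU-KO mice exceeded every control mouse while 5 of 8 exceeded the control median. Leaving out MCU-KO mouse 6 brought the log2 fold change of Slc17a6 to 0.20. For Slc17a7 the interval, -3.79 to 1.60, spanned a large change either way, and the direction turned with control mouse 2: the log2 fold change was -1.10 ± 1.30 (SE) with all mice and 0.25 without that mouse. The biological coefficient of variation estimated by edgeR was 0.21 for Abat, 0.35 for Gad1, 0.40 for Gad2, 0.54 for Slc17a6, 0.56 for Slc32a1 and 1.66 for Slc17a7, against a median of 0.478 over all tested genes and 0.18 for Th.

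**Figure D3:**
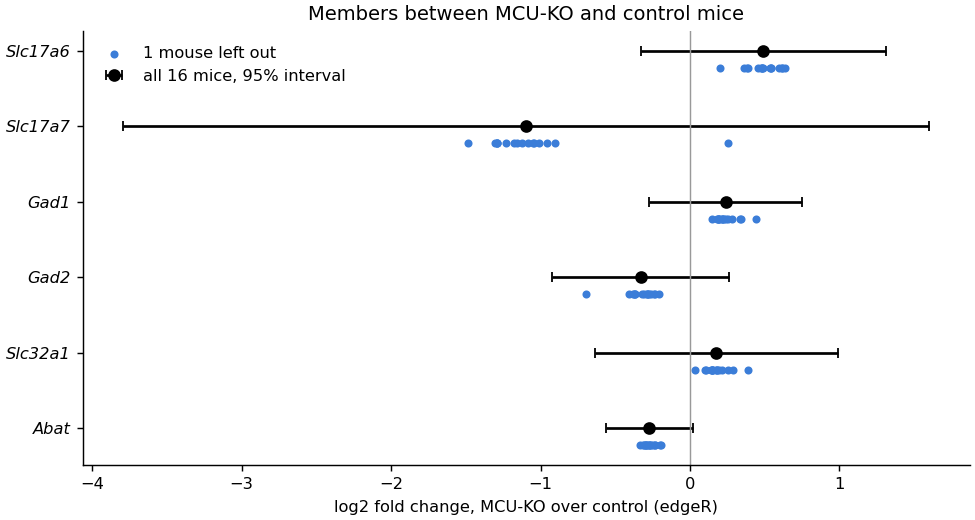
Log2 fold change of MCU-KO over control (horizontal axis) for the 6 members tested, in black with the 95% interval from edgeR over 16 mice, and in blue after leaving out each mouse in turn. All intervals include 0, and the only member whose estimate crosses 0 when a mouse is left out is Slc17a7, at 0.25 without control mouse 2.

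In bulk RNA, fewer cells of a type and less RNA per cell cannot be told apart, and this holds for RNA of GABAergic neurons in the precipitate. Markers of GABAergic neurons were present: the 15 marker genes summed to between 1462 and 4631 normalised counts in control mice (median 2276) and between 1672 and 3647 in MCU-KO mice (median 2499). Of these 15 genes, 3 had at least 3 counts in every mouse, the highest mean over all 16 mice belonging to Pvalb, the parvalbumin gene of many pars reticulata neurons, at 973 ± 333 in control and 998 ± 266 in MCU-KO mice (SD, n = 8 each). Sst, the somatostatin gene, named after its values were seen, had the higher mean in control mice (999.9 ± 471, SD, n = 8), and Pvalb and Sst made up between 58.0% and 86.6% of the sum. Per kilobase of exon Pvalb had a mean of 935 ± 320 and Sst one of 1387 ± 653 in control mice (SD, n = 8), above the 284 ± 94.3 of Gad2, 139 ± 56.7 of Gad1 and 85.1 ± 35.5 of Slc32a1 in the same mice. The other 13 of the 15 markers had lower means per kilobase than Gad2 and Gad1, and 12 had lower means than Slc32a1, the exception being Npy, the neuropeptide Y gene, at 120 ± 120 (SD, n = 8). Lhx6, a transcription factor of forebrain interneurons and the marker with the lowest mean, had counts in 3 of 16 mice.

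Markers of glutamatergic neurons were near the floor in most control mice and higher in most MCU-KO mice. Their 8 genes summed to between 0 and 126 normalised counts in control mice (median 1.42). In MCU-KO mice the sum lay between 7.69 and 290 (median 102). The groups overlapped, and this difference was not tested. Of the 8 genes, 0 had at least 3 counts in every mouse, and the cortical markers Emx1 and Fezf2 had none in any library. Barhl1, a transcription factor gene of subthalamic neurons, named after its values were seen, had at least 3 counts in 1 of 8 control and 5 of 8 MCU-KO mice. Subthalamic neurons are known to express Slc17a6. In MCU-KO mice 1 to 8 Barhl1 had 8, 34, 2, 0, 0, 18, 14 and 65 counts. Slc17a6 had 234, 314, 985, 1418, 1336, 2176, 292 and 461 in the same order. Whether the 2 genes varied together was not tested. The part of other glutamatergic neurons in the Slc17a6 level was not tested.

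Across the 16 mice, after removal of group means, the members were compared with the summed GABAergic, dopaminergic, astrocyte and oligodendrocyte markers on the log2 scale. None of the 24 relations that could be computed passed adjustment, and Slc17a8, with no variation, gave none. With the GABAergic markers, Pearson's r was 0.37 for Gad1 (rho 0.34, permutation p = 0.164 and 0.211, adjusted p = 0.437 and 0.680), 0.36 for Gad2 (rho 0.22, permutation p = 0.153 and 0.423, adjusted p = 0.437 and 0.816) and 0.41 for Slc32a1 (rho 0.41, permutation p = 0.119 and 0.124, adjusted p = 0.410 and 0.548). Without the 2 mice farthest from the median of the marker sum, control mice 3 and 7, these became 0.07, 0.36 and 0.47. Relations of this size were not limited to the GABA genes: Slc17a6 had r = 0.39 with the GABAergic markers (rho 0.31, permutation p = 0.120 and 0.227, adjusted p = 0.410 and 0.680), 0.54 without the same 2 mice, and -0.10 within control and 0.81 within MCU-KO mice, whereas Abat had r = -0.11 (rho -0.18, permutation p = 0.688 and 0.512, adjusted p = 0.787 and 0.816). For the GABA genes within groups, r was 0.58 in control and 0.14 in MCU-KO mice for Gad1, 0.57 and 0.23 for Gad2, and 0.14 and 0.75 for Slc32a1. With the GABAergic marker sum as a term in the edgeR fit, the log2 fold change between groups was 0.23 for Gad1, -0.40 for Gad2, 0.08 for Slc32a1 and 0.22 for Slc17a6, against 0.24, -0.33, 0.18 and 0.49 without it, and 0 members were called. For Slc17a6 it was also 0.22 with the mouse number as a block and 0.23 with limma-voom, both without a marker term.

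For Slc17a6 the smallest p-values of the family were found with astrocyte markers (r = 0.59, rho 0.46, permutation p = 0.0181 and 0.0765, adjusted p = 0.299 and 0.548) and with dopaminergic markers (r = -0.64, rho -0.54, permutation p = 0.0249 and 0.0651, adjusted p = 0.299 and 0.548). The astrocyte relation fell to r = 0.35 without MCU-KO mice 4 and 6, and within groups it was 0.51 in control and 0.68 in MCU-KO mice. The dopaminergic relation was -0.39 without MCU-KO mice 6 and 7, and within groups it was -0.04 in control and -0.80 in MCU-KO mice. MCU-KO mouse 6, highest in Slc17a6 and Gad2, had the lowest dopaminergic marker sum of all 16 mice (221773 against 252395 to 371070 in the other 7 of 8 MCU-KO mice), the second highest GABAergic sum (3647) and the highest microglial sum (2643).

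**Figure D4:**
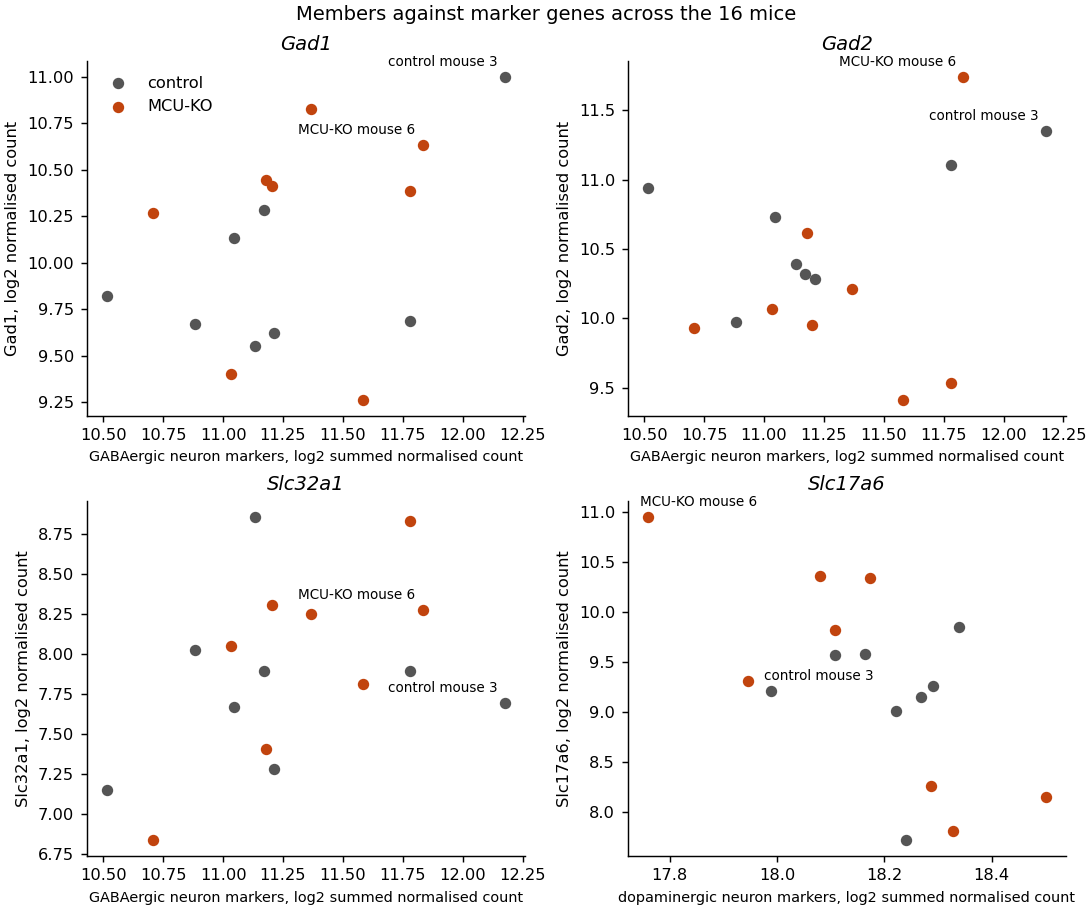
Log2 normalised count of Gad1, Gad2 and Slc32a1 against the log2 summed GABAergic markers, and of Slc17a6 against the log2 summed dopaminergic markers, one point per mouse (control grey, MCU-KO orange). The GABA genes scatter widely at a given marker level (r from 0.36 to 0.41 after removal of group means), and MCU-KO mouse 6 lies at the low end of the dopaminergic markers with the highest Slc17a6.

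Marker genes of glia and vessels were also present. Oligodendrocyte markers, from Mbp down to Olig2, summed to 55729 to 108973 normalised counts in control and 66445 to 126814 in MCU-KO mice, and 8 of 8 had at least 3 counts in every mouse. Astrocyte markers, from Aqp4 down to Slc39a12, summed to 2133 to 7307 and 3290 to 9512. Microglial markers, from C1qa down to P2ry12, summed to 479 to 1874 and 557 to 2643, and endothelial markers, from Flt1 down to Cdh5, to 139 to 678 and 116 to 419. The share of each member that came from such cells was not tested.

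How closely the members followed one another across mice was read among the 5 members present in every mouse. None of 10 relations passed adjustment. Gad1 and Gad2 had r = 0.51 (rho 0.52, permutation p = 0.0591 and 0.0454, adjusted p = 0.296 and 0.227), which was 0.33 without control mouse 3 and MCU-KO mouse 6. Slc32a1 had r = 0.01 with Gad1 and -0.10 with Gad2, and r = 0.53 with Slc17a6 (rho 0.64, permutation p = 0.0482 and 0.0177, adjusted p = 0.296 and 0.177), which was 0.17 within control and 0.72 within MCU-KO mice.

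The other genes that make, move and degrade GABA were not called between groups. Of 10 such genes 8 were tested, with 0 called, 6 higher and 2 lower in MCU-KO mice and a median log2 fold change of 0.04. Aldh1a1, the aldehyde dehydrogenase linked to GABA synthesis in dopaminergic neurons, had the highest level, also per kilobase, at 42314 ± 7551 normalised counts in control and 42533 ± 6911 in MCU-KO mice (SD, n = 8 each; log2 fold change 0.01). Akr7a5, the gene of a reductase for the GABA breakdown product succinic semialdehyde, had 1496 ± 255 and 1447 ± 339 (SD, n = 8 each; log2 -0.05). The smallest p belonged to Slc6a11, the gene of the astrocytic uptake transporter GAT3 (log2 0.26 ± 0.26 SE, edgeR unadjusted p = 0.332).

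Of 12 genes of glutamate synthesis, breakdown and uptake, 12 were tested with 0 called, 7 higher and 5 lower, and a median log2 fold change of 0.12. Slc1a2, the gene of the astrocytic glutamate transporter GLT-1, had 6283 ± 1585 normalised counts in control and 7784 ± 1499 in MCU-KO mice (SD, n = 8 each) and was the only one with an unadjusted p under 0.05 (log2 0.31 ± 0.15 SE, edgeR unadjusted p = 0.0457, adjusted p = 1.00). Slc38a1, a neuronal glutamine transporter gene, had 7314 ± 1337 and 6392 ± 1060 (log2 -0.19 ± 0.12 SE). Glud1, the gene of glutamate dehydrogenase, had 4143 ± 662 and 4121 ± 772 (log2 -0.01 ± 0.13 SE).

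Among 10 other vesicular transporter genes, 2 had enough counts to be tested and 0 were called, 1 being higher and 1 lower. Slc18a2, the gene of the vesicular monoamine transporter VMAT2, had 32616 ± 6077 normalised counts in control and 37395 ± 7744 in MCU-KO mice (SD, n = 8 each; log2 0.20 ± 0.12 SE, edgeR unadjusted p = 0.119). Slc17a5, the gene of the lysosomal sialic acid transporter sialin, had 454 ± 241 and 394 ± 127 (log2 -0.20 ± 0.33 SE). Slc18a1, the gene of the monoamine transporter of endocrine cells, had counts in 7 of 16 mice, and Slc18a3, the vesicular acetylcholine transporter gene, was at 0 in all.

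**Figure D5:**
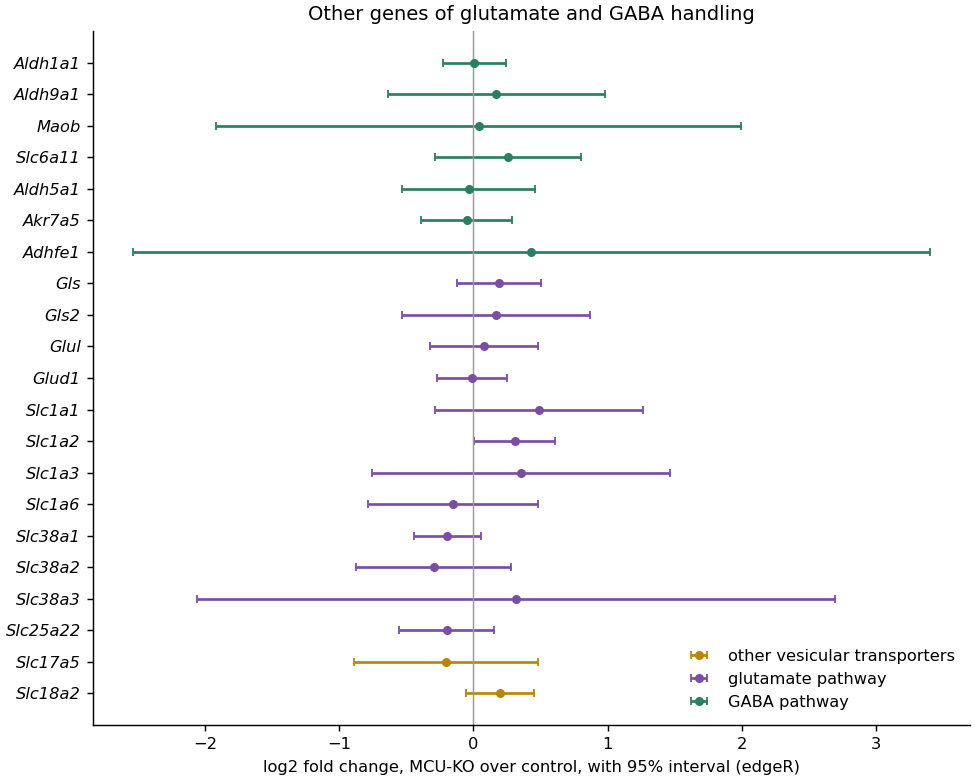
Log2 fold change of MCU-KO over control (horizontal axis) with 95% intervals from edgeR for tested genes of GABA handling (green), glutamate handling (purple) and other vesicular transport (ochre). Slc1a2 is the gene whose interval lies just above 0, and none passed adjustment over all tested genes.

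For each member with at least 10 counts in every mouse, the 3 genes that followed it most closely over the 16 mice were found, as a description only. Spearman's rho was taken on log2 normalised counts after removal of group means, among 12389 others. The nearest of so many genes have a high rho by selection, and none of these relations was tested. From 23 (Gad1) to 52 (Slc32a1) genes per member had a rho over 0.7. Slc17a6 was followed most closely by Nt5dc2 (rho 0.85), Smarca2 (0.81) and Hdgfl3 (0.81). Gad1 was nearest to Slc5a3 (0.82), Bid (0.80) and Cacna1i (0.80), and Gad2 to Phf8 (0.84), Mum1 (0.84) and Fam228b (0.83). Slc32a1 was nearest to Asap1 (0.89), Hdgfl3 (0.83) and Anp32a (0.83), and Abat to Elp6 (0.84), Lcmt2 (0.82) and Fibcd1 (0.81). Hdgfl3 was the only gene found for 2 members, Slc17a6 and Slc32a1, and no member was among the 3 nearest genes of another.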

How the data were processed

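Ribosome-bound RNA of 8 control and 8 MCU-KO mice was measured by RNA-seq. The authors trimmed reads (Trim Galore per the submitters' processing notes), used STAR for alignment against mm10 and obtained counts for each Ensembl gene from HTSeq; the deposited values are raw counts per gene and mouse, and versions and the strand setting are not given in the sources used here. Groups came from the genotype labels, and each library is a separate mouse. Symbols and lengths came from GENCODE for GRCm38 (24942 of 25006 identifiers matched). The members and all 11 gene lists were chosen with earlier results of these data known.

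The main test was the edgeR 4.0.16 quasi-likelihood test (filterByExpr, TMM scaling, group as the only term) on 12390 genes with Benjamini-Hochberg adjustment over all of them, since a count model is needed for raw counts; DESeq2 1.42.0 and limma 3.58.1 (voom) were alternatives. Normalised counts are counts divided by DESeq2 size factors. Levels between genes were compared per kilobase within mice by an exact two-sided sign-flip test, with pseudocount 1 and with mice in which neither gene had a count set to no difference, a rule added after the values were seen. Correlations used 100000 permutations, two-sided. Gene totals of 14129527 to 22016362 counts gave floors of 3 counts per library, covering counting error only. The edgeR fit was tried on simulated counts. Alternatives were other scalings, filters, pseudocounts, gene lengths, a GABAergic marker term, the mouse number as a block, and leaving out each mouse.

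Named genes were the members, per pathway list every called gene or otherwise the 3 highest and the one with the smallest p, per marker list the highest and lowest, the 3 nearest genes of each member, and Mcu; Sst and Barhl1 were added after their values were seen, and 2 genes that the rule selects are not reported here.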

Additional observations from a re-analysis of the deposited data

Results flagged for a closer look

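Single mice stood apart from the rest of their group in 6 of the 26 sets of 8 values examined, by the gap to the nearest mouse relative to the whole range. For normally distributed values this rule flags about 1 in 20 sets, or 1.3 of 26. Here it was applied to counts that were not log-transformed, and all 6 flagged values were the highest of their set. The 6 against 1.3 therefore does not measure an excess over chance. Slc17a7 in control mouse 2 was at 282 normalised counts, with the next control mouse at 57.3. Gad1 in control mouse 3 was at 2043, with the next at 1245, and the same mouse had the highest GABAergic marker sum of all 16 mice (4631). Gad2 in MCU-KO mouse 6 was at 3417, with the next at 1567, beside the lowest dopaminergic marker sum (221773). Slc32a1 in control mouse 6 was at 462, with the next at 260, while its GABAergic marker sum of 2245 lay near the control median of 2276. The glutamatergic marker sum was 126 in control mouse 5 and 290 in MCU-KO mouse 2. The part of other cells in these values was not tested.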

How the results depend on the processing

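No member was called in any of the 25 fits, including each fit without 1 mouse, and the counts of called relations between members and markers and among members stayed at 0 in all settings tried. The direction of Slc17a7 turned from a log2 fold change of -1.10 to 0.25 without control mouse 2, to 0.63 with limma-voom and to 1.01 with the replicate block; the cause of the latter 2 was not tested. The difference between Gad2 and Gad1 per kilobase turned from 1.05 to -0.0070 log2 units with the longest transcript, by construction of that length, and Slc17a7 had too few counts in some mice for the filter of 10 counts in every mouse, while Slc17a8 could not be fitted in any setting. Leaving out 1 mouse at a time moved the log2 fold change of Slc17a6 between 0.20 and 0.64, of Slc17a7 between -1.49 and 0.25, of Gad1 between 0.14 and 0.45, of Gad2 between -0.70 and -0.21, of Slc32a1 between 0.03 and 0.39, and of Abat between -0.34 and -0.19. For Abat the unadjusted p was under 0.05 in 3 of 25 settings, and its adjusted p (edgeR, DESeq2 or limma) ran from 0.461 to 1.00. Without control mouse 8 the gap of Slc17a6 over Slc32a1 moved from 0.41 to 0.63 log2 units (n = 7). Its p (exact permutation test, 0.0156) was then the smallest possible, since the only mouse of opposite sign had been left out. With the longest transcript 4 of the same 6 pairs differed at an adjusted p under 0.05, against 3 per merged exons. The pairs were kept from the merged-exon order. Gad1 came before Gad2 with the longest transcript, so not all 6 pairs were neighbours on that scale. Mouse numbers did not pair the libraries: correlations of same-numbered mice after removal of group means ran from -0.061 to 0.031, 0 of 8 over 0.1. With the mouse number as a replicate block, 14 genes were called against 22 without it and 0 members in both, and with DESeq2 90 genes were called. Depth set the limit for Slc17a8, and the spread between mice that for Slc17a7.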

Other observations

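The balance of the 2 GABA-synthesizing enzymes was examined after the values had been seen. Normalised counts of Gad1 divided by those of Gad2 lay below 1 in 8 of 8 control mice (0.374 to 0.973) and above 1 in 4 of 8 MCU-KO mice (0.465 to 1.80). These counts were not divided by gene length, so a ratio of 1 does not mark equal levels. Per kilobase of the longest transcript Gad2 exceeded Gad1 in 3 of 8 control mice. The choice of length shifts all ratios alike and does not change the difference between groups. The mean log2 ratio was higher by 0.69 in MCU-KO mice (exact two-sided permutation test over the 8 and 8 mice, p = 0.0303), and among the 10 ratios of the 5 members with counts in every mouse it did not pass adjustment (adjusted p = 0.303). MCU-KO mouse 6 had the lowest ratio of the MCU-KO mice (0.465), and leaving it out was not planned. Without that mouse the difference was 0.85 (exact permutation test, p = 0.00637, adjusted p = 0.0637). Because the mouse most opposed to the difference was removed, this p is no separate evidence for it. With a pseudocount of 5 and all mice the difference was 0.69 (exact permutation test, p = 0.0306). With all mice and pseudocount 1, the other 9 ratios had adjusted p-values of 0.411 or more (exact permutation test).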
